A study of Mus musculus with 8 samples.

Results

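The replication-dependent histone genes encode the bulk histones that package newly copied DNA. They were taken here as every gene whose mouse symbol begins with Hist1h, Hist2h, Hist3h or Hist4h in the GENCODE M21 annotation, which lists 70 such genes, 67 coding and 3 pseudogenes. The deposited count table of 26062 genes held 52 of them. All 52 had a count in at least 1 library, 15 had a count in all 8, and 23 had enough counts to be tested. The other 18 genes were not analysed here. The counts came from microglia, the resident macrophages of the brain, of adult wild-type male C57BL/6J mice aged 2 to 3 months. The cells were taken from the lateral geniculate nucleus, the thalamic relay of retinal axons, and were purified on magnetic beads that bind CD11b, a surface integrin that other myeloid cells also carry. Uninjured mice gave 2 libraries, and mice 1 day and 3 days after crush of both optic nerves gave 3 libraries each. Nothing in the labels tells whether 1 animal or several went into a library, so p-values reflect library-to-library spread, which may be technical.

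Histone mRNAs of this kind are made in S phase, when a dividing cell needs new histones for the second copy of its genome. Most lack introns and a poly(A) tail, and end instead in a short stem-loop. The protein SLBP binds it, and the U7 small nuclear ribonucleoprotein guides the cut that forms the end. Some of the genes can also be read past the stem-loop into a downstream polyadenylation site, which has been described in cells that have stopped dividing. The core histones H2A, H2B, H3 and H4 form the nucleosome, and the linker histone H1 sits on the DNA between nucleosomes.

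The stem-loop served as a check of the gene set, because the symbols alone had chosen the members. A perfect 6-base inverted repeat around a 4-base loop, within 100 bases after the stop codon, was found in 46 of the 52 coding members whose GENCODE M21 transcript holds at least 16 bases after the stop codon. By the same search it was found in 1238 of 21018 other coding genes, or 5.89%. The 46 hairpins began 21 to 58 bases after the stop codon, with a median of 31, and had 8 distinct sequences. They are shown because they are the feature that sets these mRNAs apart, 1 example of each, with the paired stem in capitals and up to 5 bases on either side (GENCODE M21 transcripts, GRCm38, transcript strand).
Hist1h1c: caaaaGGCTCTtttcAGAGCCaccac
Hist1h3e: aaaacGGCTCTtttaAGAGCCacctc
Hist2h2ac: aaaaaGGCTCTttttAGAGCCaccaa
Hist1h3g: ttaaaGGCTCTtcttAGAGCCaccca
Hist1h4d: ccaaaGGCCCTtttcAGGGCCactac
Hist1h4i: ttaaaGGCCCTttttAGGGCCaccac
Hist1h4j: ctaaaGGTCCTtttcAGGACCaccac
Hist1h4a: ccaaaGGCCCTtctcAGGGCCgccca
The form of Hist1h1c occurred in 26 members of the H1, H2A, H2B and H3 classes. That of Hist1h4d occurred in 7 members, all of the H4 class, and that of Hist1h3e in 6. The forms of Hist1h4i and Hist1h4j occurred in 2 H4 genes each, and the other 3 in 1 gene each. No hairpin of this shape was found in Hist1h1a, Hist1h2bc, Hist1h2bq, Hist1h2br, Hist2h2be or Hist2h3b. The transcripts of Hist1h1a and Hist2h3b hold only 48 and 37 bases after the stop codon, so a hairpin further on would have been missed. For Hist1h1b the transcript used here ends at the stop codon, so there was no sequence to search.

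The libraries held 12700098 to 17994861 counts. Members took 1777 to 2727 of them per library, or 0.0133 to 0.0192%. A count was found for 36 and 38 members in the uninjured libraries, for 27, 26 and 31 at day 1, and for 46, 45 and 41 at day 3. Over all genes, 21663 and 22395 had a count in uninjured libraries, 18035 to 20220 at day 1 and 20632 to 21044 at day 3. The 8 microglial marker genes summed to 7094 to 9666 CPM in uninjured libraries, 9690 to 12609 CPM at day 1 and 7385 to 8817 CPM at day 3, and none of them was at 0 in any group. CPM, used throughout, is a count scaled to a common library size with TMM factors.

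The 52 genes lie in 4 clusters, with 44 in Hist1 on chromosome 13, 5 in Hist2 on chromosome 3, 2 in Hist3 on chromosome 11 and 1, Hist4h4, on chromosome 6. The table held all 6 H1 genes and all 13 H4 genes of the annotation, but 9 of 20 H2A genes, 14 of 19 H2B genes and 10 of 12 H3 genes. Of these, 5 H1, 1 H2A, 8 H2B, 3 H3 and 6 H4 genes were tested. The plot of raw counts shows all 52.

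**Figure D1:**
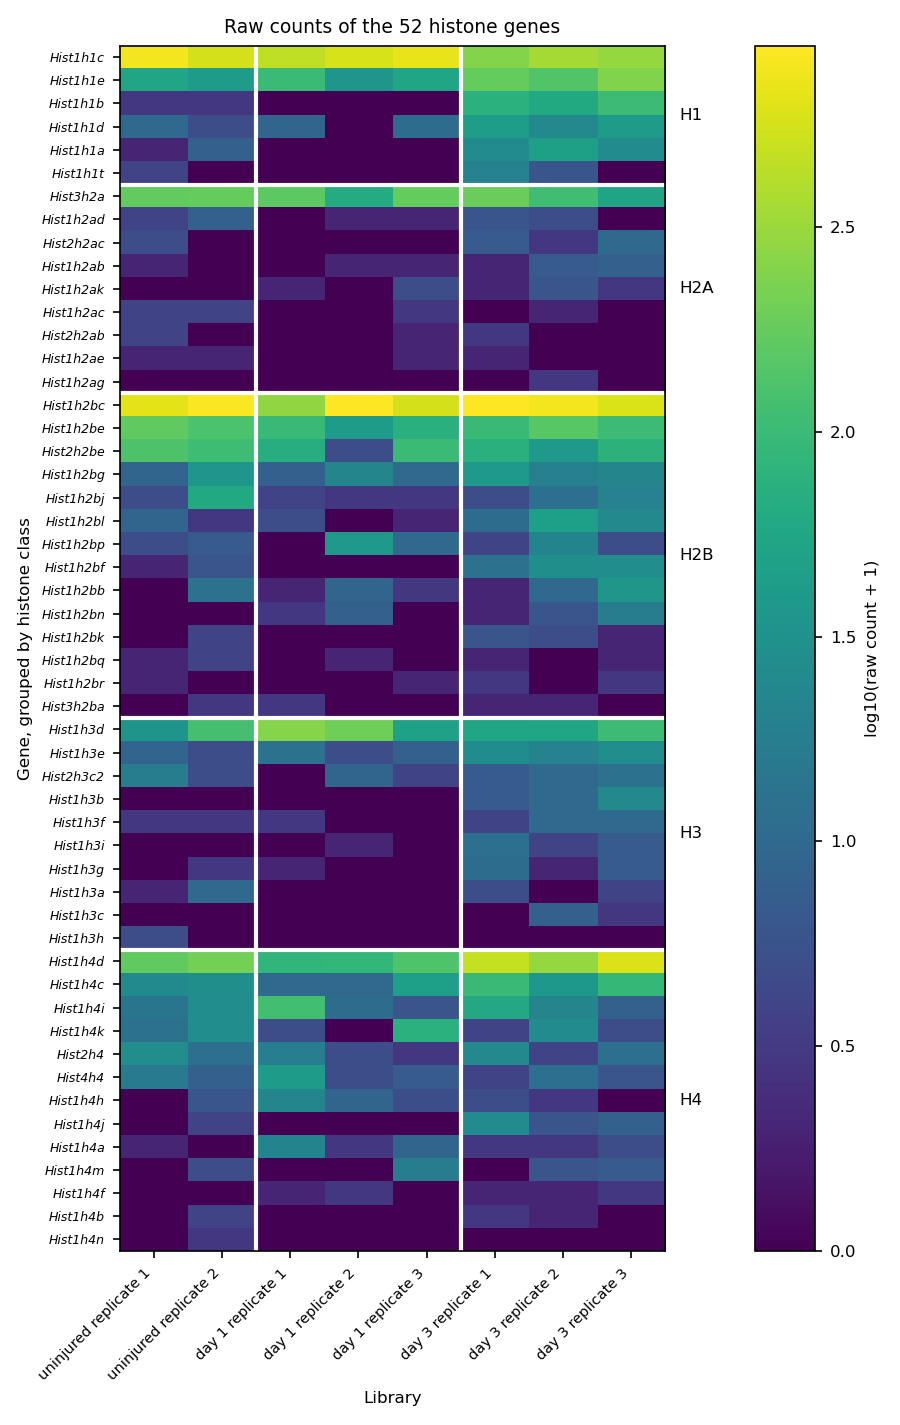
Raw counts of the 52 histone genes (rows, grouped by class and sorted by total count) in the 8 libraries (columns), coloured by log10 of the count plus 1. Each class holds at least 1 gene with counts in every library and several near 0, and Hist1h1b, Hist1h1a, Hist1h2bf and Hist1h3b are at 0 in all day 1 libraries and above 0 in all day 3 libraries.

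Near-identical copies limit what could be counted for each gene. The share of 50-base words of a gene's transcripts found in no other transcript had a median of 50.6% for the 52 genes in the table and of 7.40% for the other 18. It was under 15% for 7 of the 52 and for 12 of the 18, and 5 of the 18 had no such word. Where the counting leaves out reads that match several places, a gene with few unique words receives few counts. Read length and strand setting were not given in the sources used here. Among genes named below, the share was 100% for Hist1h1a and Hist1h1b, 91.5% for Hist1h1c, 89.8% for Hist1h4d, 69.4% for Hist1h2bc, 68.0% for Hist1h1e and 34.2% for Hist1h2bf. The level of Hist1h2bf is uncertain for that reason. Hist1h1e shares 496 exonic bases on the same strand with Hist1h2be, and Hist3h2a shares 708 with the unrelated gene Trim17, so both are uncertain too.

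Per length of transcript, a few genes held most of the signal. Hist1h2bc (ENSMUSG00000018102), an H2B gene, had the highest mean over the 8 libraries at 39.9 CPM per kb of exon. Hist1h1c (ENSMUSG00000036181), which encodes the linker histone H1.2, had 21.01 CPM per kb, and the H4 gene Hist1h4d (ENSMUSG00000061482) had 16.02 CPM per kb. Next came the H3 gene Hist1h3d with 6.21 and the H2A gene Hist3h2a with 4.14 CPM per kb, and the other 47 members lay at or under 3.92 CPM per kb.

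Members with a long annotated end held most of the counts, although the levels of long and short ends overlapped. The 20 genes with 376 to 4931 bases annotated after the stop codon took 92.0% of all member counts, and 13 of them had a count in all 8 libraries. The 32 genes with 0 to 230 bases took 8.0%, and 2 of them had a count in all 8. Their median levels were 1.36 CPM per kb for the longer and 0.346 CPM per kb for the shorter ends. The line between the groups, 300 bases, was chosen after the values were seen, and the longer transcripts also hold more unique words, with a median of 75.3% against 42.5%. The part of this difference in uniqueness in the levels was not tested. Per the labels the RNA was linearly amplified. Whether mRNAs with and without a poly(A) tail were captured alike was not tested, nor was the part of this in the levels. The highest gene with a short end was Hist1h4k at 3.72 CPM per kb. It had 28.5% unique words, and day 1 replicate 3 held 74 of its 149 counts. The lowest with a long end were Hist1h2br, Hist1h2ac and Hist1h2bq, between 0.0230 and 0.0269 CPM per kb. Their shares of unique words were 6.78%, 85.9% and 1.54% in that order.

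**Figure D2:**
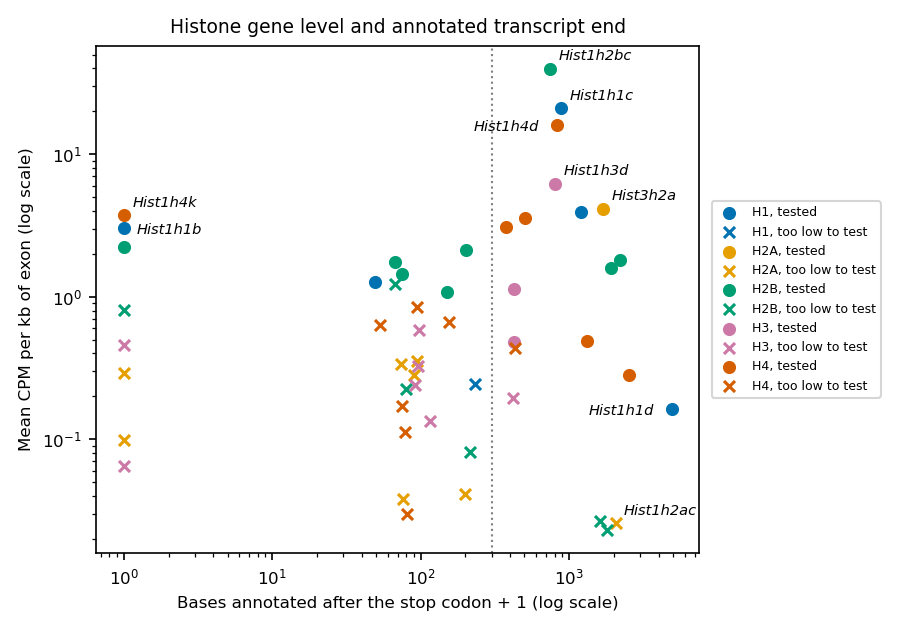
Mean level of each of the 52 histone genes over the 8 libraries (CPM per kb of exon, log scale) against the number of bases annotated after its stop codon plus 1 (log scale), coloured by class, with crosses for genes too low to test. The dotted line marks 300 bases, and Hist1h2bc, Hist1h1c, Hist1h4d, Hist1h3d and Hist3h2a, the 5 highest, lie to its right.

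Summed over all 52 genes, the level was 124.7 and 127.2 CPM in uninjured libraries, 138.4, 161.0 and 127.4 CPM at day 1, and 178.3, 178.3 and 213.6 CPM at day 3. The day 3 libraries lay above the other 5. Of these, day 1 replicate 3 was nearly level with the uninjured libraries, and day 1 replicates 1 and 2 were higher, with replicate 2 the highest. The share of all counts that fell on mitochondrial genes, a sign of RNA quality, was 22.5 and 21.3% in uninjured libraries, 13.6, 21.9 and 13.9% at day 1, and 22.8, 28.9 and 30.3% at day 3. It was also highest at day 3, and its part in the histone levels was not tested. In bulk RNA, fewer cells of a type and less RNA per cell cannot be told apart. The H4 genes summed to 15.4 ± 2.31 CPM in uninjured libraries (SD, n = 2), 17.5 ± 7.12 CPM at day 1 (SD, n = 3) and 45.9 ± 15.2 CPM at day 3 (SD, n = 3). In the same order of groups, the H2B sums were 57.3 ± 6.09, 54.5 ± 22.6 and 76.6 ± 5.68 CPM. The H1 sums were 38.2 ± 9.11, 46.8 ± 2.74 and 47.6 ± 9.40 CPM, and the H3 sums 5.24 ± 2.65, 13.8 ± 9.19 and 10.5 ± 4.34 CPM. The H2A sum, nearly all of it Hist3h2a, stayed between 9.57 and 9.78 CPM in the group means. H4 and H2B had their highest group mean at day 3, although 1 day 1 library had an H2B sum of 79.9 CPM, within the day 3 range of 72.3 to 83.0 CPM. The H3 mean was highest at day 1, but without day 1 replicate 1 it was 10.02 CPM there, below that of day 3.

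Hist1h2bc and Hist1h1c together made up about as many counts as the other 50 genes, so sums were also taken without them. The 50 genes then summed to 48.0 and 55.3 CPM in uninjured libraries, 80.6, 44.3 and 49.1 CPM at day 1, and 105.8, 93.3 and 141.7 CPM at day 3. Day 1 replicate 1 stood apart from its group, and all day 3 libraries lay above it. Genes with a short annotated end summed to 3.26 and 9.99 CPM in uninjured libraries, 5.22, 7.22 and 8.19 CPM at day 1, and 16.5, 24.4 and 28.2 CPM at day 3. Genes with a long end summed to 121.4 and 117.2 CPM in uninjured libraries, 133.2, 153.8 and 119.2 CPM at day 1, and 161.8, 153.9 and 185.4 CPM at day 3. Both sums were highest at day 3, and for the long ends day 1 replicate 2 and day 3 replicate 2 were nearly level.

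**Figure D3:**
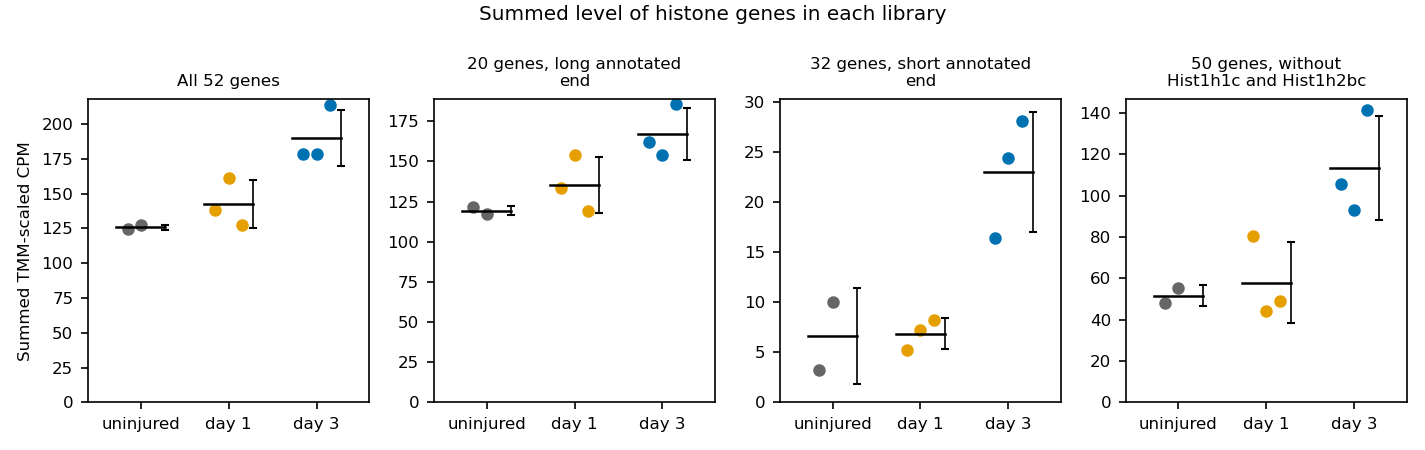
Summed level of histone genes (TMM-scaled CPM) in each library, by group, for all 52 genes, for those with long and short annotated ends and for the 50 genes other than Hist1h1c and Hist1h2bc. Points are libraries, lines are group means and bars are 1 SD (n = 2, 3 and 3). The day 3 points lie above the others in each panel, with the closest pair, 153.9 CPM at day 3 and 153.8 CPM at day 1, among the long ends.

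At day 3, compared with uninjured microglia, 3 of the 23 histone genes tested were higher and 0 lower (edgeR quasi-likelihood test, Benjamini-Hochberg adjusted p under 0.05). Over all 17390 genes tested, 2.49% were called higher and 0.983% lower. The 3 were the linker histone genes Hist1h1b and Hist1h1e and the core histone gene Hist1h4d. The median log2 fold change was 0.75 for the 23 and -0.00165 for all genes. The 23 are the members that passed the filter on low counts, and some, such as Hist1h1b, passed through their day 3 counts alone, so these figures do not describe all 52.

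Hist1h1b (ENSMUSG00000058773) encodes H1.5, a linker histone typical of dividing cells. Its levels were 4.84, 4.54 and 8.39 CPM at day 3, against 0.107 and 0.103 CPM in uninjured libraries. The groups did not overlap, and the uninjured libraries held 4 counts between them against 239 at day 3. The log2 fold change was 5.71 (SE 1.18, adjusted p = 0.0194, edgeR).

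Hist1h4d, the H4 gene of highest level, had 31.9, 22.2 and 49.8 CPM at day 3, against 8.87 and 11.0 CPM in uninjured libraries. Every day 3 library was above both uninjured ones, with day 3 replicate 3 the highest. The log2 fold change was 1.80 (SE 0.40, adjusted p = 0.0238, edgeR). Hist1h1e (ENSMUSG00000051627), which encodes the linker histone H1.4, had 11.6, 10.4 and 19.7 CPM at day 3, against 2.88 and 2.11 CPM in uninjured libraries, and the groups again lay apart. The log2 fold change was 2.47 (SE 0.63, adjusted p = 0.0445, edgeR). Hist1h2be, with which it shares exonic bases, had 6.41, 11.2 and 8.31 CPM at day 3, against 8.92 and 6.59 CPM in uninjured libraries, and its groups overlapped.

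These 3 calls rest on few libraries. No member was called (0 of 23) when either uninjured library was left out, or day 3 replicate 1 or 3, and 1 was called without day 3 replicate 2. The log2 fold change of Hist1h1b stayed between 5.33 and 5.84 whichever of the 8 libraries was left out, that of Hist1h4d between 1.39 and 1.99 and that of Hist1h1e between 2.08 and 2.71. Their highest adjusted p-values were then 0.231, 0.296 and 0.319. Scaling by library size also ended the call of Hist1h1e (adjusted p = 0.0616, edgeR).

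The other 2 tested H1 genes with low uninjured levels did not pass. Hist1h1a (ENSMUSG00000049539), which encodes H1.1, had 1.63, 3.42 and 2.02 CPM at day 3, against 0.0534 and 0.361 CPM in uninjured libraries (adjusted p = 0.289, edgeR). Hist1h1d, which encodes H1.3, had 2.81, 1.71 and 3.23 CPM at day 3, against 0.481 and 0.206 CPM in uninjured libraries (adjusted p = 0.348, edgeR). In both, every day 3 library lay above both uninjured ones. Hist1h1c, the most abundant linker histone gene, was the reverse of the other H1 genes, with 16.4, 26.4 and 24.0 CPM at day 3, against 40.97 and 29.0 CPM in uninjured libraries (log2 fold change -0.65, SE 0.29, adjusted p = 0.285, edgeR).

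**Figure D4:**
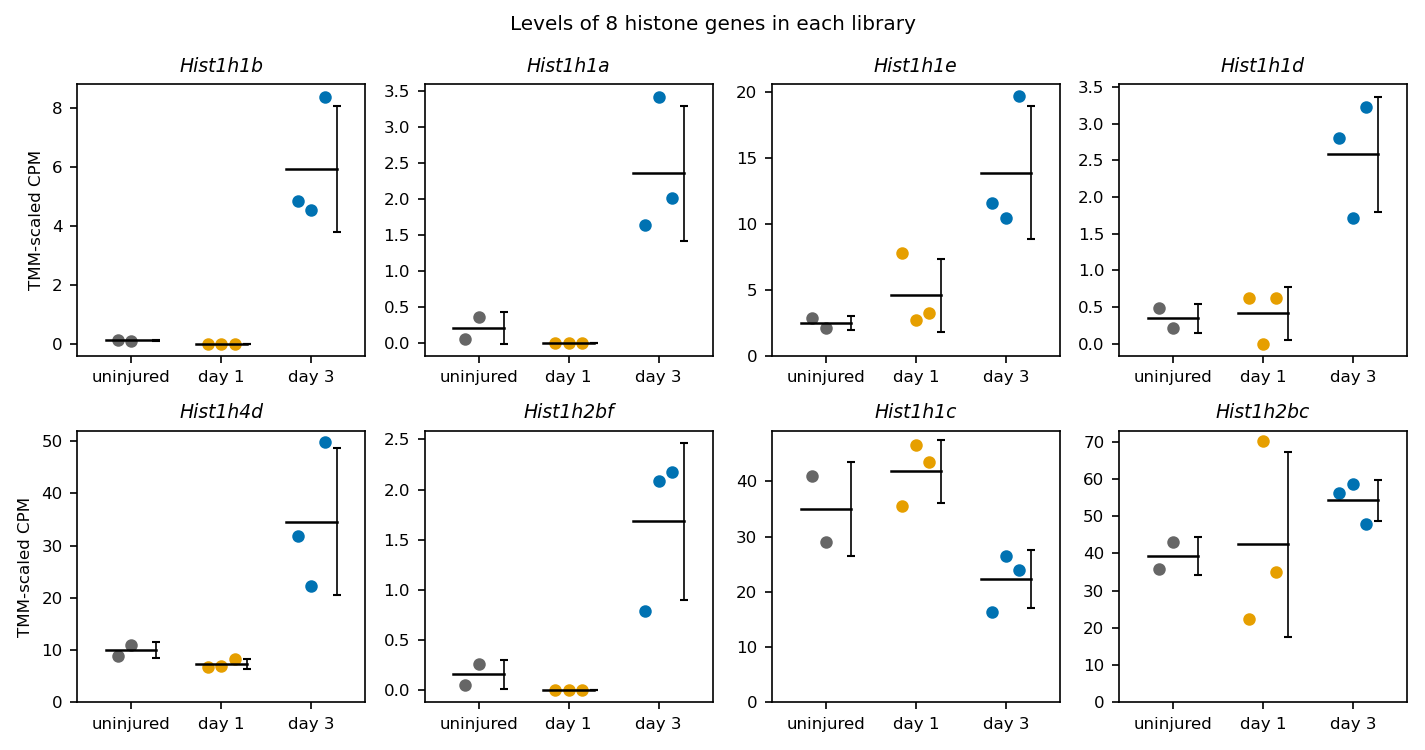
TMM-scaled CPM of 8 histone genes in each library, by group, with the group mean (line) and 1 SD (bar, n = 2, 3 and 3). Hist1h1b, Hist1h1a and Hist1h2bf were at 0 in all 3 day 1 libraries and above 0.7 CPM in all 3 day 3 libraries, whereas Hist1h1c was lower in every day 3 library than in any other.

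The H4 gene Hist1h4c had 6.34, 2.68 and 7.34 CPM at day 3, against 1.28 and 1.44 CPM in uninjured libraries, a log2 fold change of 1.99 (SE 0.90) with an adjusted p of 0.291 (edgeR). The H3 gene Hist1h3e, at 1.70, 1.41 and 2.18 CPM at day 3 against 0.427 and 0.206 CPM in uninjured libraries, likewise had groups that lay apart and an adjusted p of 0.400 (edgeR). Among the 23 tested members, all day 3 libraries lay above both uninjured ones in 10 and below them in 1. Over all genes these shares were 20.1% above and 19.3% below. Some of the 10, such as Hist1h1b, passed the filter on low counts through their day 3 counts alone. The count of members and the shares of all genes are therefore not alike in how their genes were chosen. The abundant genes Hist1h2bc and Hist3h2a were not called. Hist1h2bc had 56.1, 58.6 and 47.9 CPM at day 3, against 35.7 and 43.0 CPM in uninjured libraries (log2 fold change 0.46, SE 0.37, adjusted p = 0.622, edgeR). Hist3h2a had 12.5, 8.12 and 4.11 CPM at day 3, against 9.08 and 9.12 CPM in uninjured libraries (log2 fold change -0.14, SE 0.55, adjusted p = 0.951, edgeR).

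Between the 2 times after crush, 4 of 23 histone genes were higher at day 3 than at day 1 and 1 was lower. Over all genes tested, 5.24% were called higher and 5.75% lower. This comparison shares its day 3 libraries with the one above. The 4 were Hist1h1b, Hist1h1a, Hist1h2bf and Hist1h4d, and the 1 was Hist1h1c. The median log2 fold change was 0.99 for the 23, also with the 3 members that had no count at day 1 set at their bound, and 0.02 for all genes. The 23 were again only the members that passed the filter, some of them through day 3 alone, so the 2 medians are not alike in how their genes were chosen.

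Hist1h1b, with the day 3 levels given above, had no count in any day 1 library. It was at least 80.5-fold higher at day 3, taking 3 counts summed over the day 1 group as the floor (adjusted p = 0.000916, edgeR). Hist1h1a also had no count at day 1, against 96 counts at day 3, and was at least 32.3-fold higher (adjusted p = 0.0139, edgeR). Hist1h2bf (ENSMUSG00000069268), an H2B gene, had 0.785, 2.08 and 2.18 CPM at day 3 and no count at day 1, and was at least 22.6-fold higher (adjusted p = 0.0261, edgeR). These bounds leave out counting error at day 3 and the spread between libraries. All 3 genes had counts in both uninjured libraries, 4, 8 and 6 in the order just given, so the day 1 libraries were the lowest of the series for them. These genes entered the test only because of their day 3 counts. Fewer genes of any kind had a count at day 1, as given above, and the part of this in the zeros was not tested.

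Hist1h4d had 31.9, 22.2 and 49.8 CPM at day 3, against 6.70, 6.98 and 8.38 CPM at day 1. The day 1 libraries were close to each other and well below all 3 day 3 libraries. The log2 fold change was 2.23 (SE 0.35, adjusted p = 0.00120, edgeR). It passed with each library left out in turn, with an adjusted p of at most 0.0174, as did Hist1h1b, with at most 0.0134. Hist1h1a and Hist1h2bf were not called without day 3 replicate 2 (adjusted p = 0.0532 and 0.0697, edgeR) or without day 3 replicate 3 (adjusted p = 0.0502 and 0.0958, edgeR), which left 2 members called. Hist1h2bf was not called without day 1 replicate 3 either (adjusted p = 0.0539, edgeR).

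Hist1h1c had 16.4, 26.4 and 24.0 CPM at day 3, against 35.4, 46.5 and 43.4 CPM at day 1. All 3 day 3 libraries lay below all 3 at day 1. The log2 fold change was -0.91 (SE 0.27, adjusted p = 0.0417, edgeR). It was called without day 1 replicate 1, but its adjusted p was over 0.05 with any other single library left out, up to 0.161, while its log2 fold change stayed between -1.05 and -0.73.

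Hist1h1e had 11.6, 10.4 and 19.7 CPM at day 3, against 7.79, 2.73 and 3.26 CPM at day 1, and did not pass (log2 fold change 1.60, SE 0.52, adjusted p = 0.0638, edgeR), although its groups lay apart. Hist1h1d had 2.81, 1.71 and 3.23 CPM at day 3, against 0.623, 0 and 0.616 CPM at day 1 (adjusted p = 0.182, edgeR). The H2B gene Hist1h2bl had 0.654, 3.35 and 1.86 CPM at day 3, against 0.312, 0 and 0.0616 CPM at day 1 (adjusted p = 0.104, edgeR), and 17.2% of its words are unique. In these 3 genes every day 3 library was above every day 1 library. This held for 9 of the 23 members, and the reverse for 1, against 16.1% and 13.6% of all genes. Hist1h1a, Hist1h1b and Hist1h2bf, among the 9, entered the test only through their day 3 counts. The members and all genes are therefore not alike in how they were chosen.

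Groups overlapped for most other abundant members. Hist1h2bc had 56.1, 58.6 and 47.9 CPM at day 3, against 22.4, 70.2 and 34.9 CPM at day 1, the widest spread within a group among them. Hist1h3d had 3.40, 4.02 and 8.39 CPM at day 3, against 20.1, 15.5 and 2.895 CPM at day 1, where replicate 3 was far below the other two (adjusted p = 0.251, edgeR). Hist1h4i had 3.86, 1.56 and 0.565 CPM at day 3, against 8.80, 0.802 and 0.308 CPM at day 1, with replicate 1 high. Hist1h4k was at 4.56 CPM in day 1 replicate 3 and at or under 1.86 CPM elsewhere. Hist2h2be, an H2B gene with no hairpin found, was at 0.321 CPM in day 1 replicate 2 and between 2.75 and 6.94 CPM in the other 7 libraries. Hist4h4 was at 3.19 CPM in day 1 replicate 1 and at or under 0.819 CPM in the rest. None of these genes was called in this comparison.

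At day 1, compared with uninjured microglia, 0 of 23 histone genes were called by edgeR, DESeq2 or limma-voom. Over all genes tested, edgeR called 0.610% higher and 1.16% lower. Without adjustment, at p under 0.05, there was 1 member higher and 4 lower, against 7.30% and 7.47% of all genes. The 1 was Hist1h3d, with 20.1, 15.5 and 2.895 CPM at day 1, against 1.71 and 6.03 CPM in uninjured libraries (adjusted p = 0.325, edgeR). The 4 were Hist1h1a, Hist1h1b, Hist1h2bf and Hist1h2bj, of which the first 3 had no count at day 1 and 8, 4 and 6 in uninjured libraries, near the floor in both groups. Hist1h2bj had 0.234, 0.160 and 0.123 CPM at day 1, against 0.214 and 3.14 CPM in uninjured libraries, so 1 uninjured library held 61 of its 72 counts in these 2 groups. The median log2 fold change was 0.05 for the 23 members and 0.06 for all genes.

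The 29 members too low to test had 2 to 68 counts in all, and together 89 counts in uninjured libraries, 123 at day 1 and 344 at day 3. Summed, they came to 1.496 and 3.14 CPM in uninjured libraries, 3.97, 2.49 and 2.53 CPM at day 1, and 7.45, 6.63 and 11.4 CPM at day 3. The day 3 libraries were again the highest. Of the 29, 13 had a count in all 3 day 3 libraries, 3 in all 3 day 1 libraries and 6 in both uninjured libraries.

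Among them were H3 genes, which encode the core histone H3. Hist1h3b had no count in uninjured or day 1 libraries and 38 at day 3, so it was at least 11.7-fold higher than in uninjured and at least 12.8-fold higher than in day 1 libraries. Hist1h3i had no count in uninjured libraries, 1 at day 1 and 20 at day 3. Hist1h3g had 2 counts in uninjured libraries, 1 at day 1 and 17 at day 3. Of the H4 genes, Hist1h4j had 3 counts in uninjured libraries, none at day 1 and 37 at day 3. Hist1h4a went the other way, with 1 count in uninjured libraries, 30 at day 1, 20 of them in replicate 1, and 8 at day 3. Hist1h4h had 5 counts in uninjured libraries, 33 at day 1, 21 of them in replicate 1, and 6 at day 3. Without day 1 replicate 1 the day 1 counts were 10 and 12. The H2A genes of highest mean besides Hist3h2a were Hist2h2ac, Hist1h2ab and Hist1h2ad, with 4, 1 and 10 counts in uninjured libraries, 0, 2 and 2 at day 1, and 17, 14 and 9 at day 3. Hist3h2ba had 2 counts in each group. The linker histone gene Hist1h1t, known from the testis, had 3 counts in 1 uninjured library, none at day 1 and 24 in 2 of the day 3 libraries. Counts this small carry wide counting error. The ratio of day 3 to uninjured for Hist1h4j was 11.4, with an exact binomial 95% interval of 3.62 to 58.0 that covers counting error alone.

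The promoters of the members were compared as a feature that the symbols do not fix. RefSeq promoters (GRCm38.p6) were found for 61 of the 70 genes, 47 of them in the table, and the 250 bases before the start were searched on both strands for 4 short motifs, with overlaps allowed. The first was CCAAT, a common promoter box, and the second was TATAAA, a form of the TATA box. Another was TTTGCAT, the core of the octamer known from H2B promoters, and the last was AAACACA, the AC box of H1 promoters. Shown are 4 promoters of chromosome 13: Hist1h1b and Hist1h1c, linker histone genes whose day 3 levels lay on opposite sides of those at day 1, and Hist1h4d and Hist1h2bf, the core histone genes called between the times. Capitals mark every match to the 4 motifs. Hist1h1b is at chr13:21780626-21780875 on the minus strand, Hist1h1c at chr13:23738557-23738806 on the plus strand, Hist1h4d at chr13:23581318-23581567 on the plus strand and Hist1h2bf at chr13:23574208-23574457 on the minus strand.
Hist1h1b: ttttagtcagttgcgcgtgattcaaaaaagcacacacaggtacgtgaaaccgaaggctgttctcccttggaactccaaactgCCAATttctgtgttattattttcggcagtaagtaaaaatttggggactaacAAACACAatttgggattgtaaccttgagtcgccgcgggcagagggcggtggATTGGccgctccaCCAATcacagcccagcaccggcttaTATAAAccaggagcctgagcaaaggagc
Hist1h1c: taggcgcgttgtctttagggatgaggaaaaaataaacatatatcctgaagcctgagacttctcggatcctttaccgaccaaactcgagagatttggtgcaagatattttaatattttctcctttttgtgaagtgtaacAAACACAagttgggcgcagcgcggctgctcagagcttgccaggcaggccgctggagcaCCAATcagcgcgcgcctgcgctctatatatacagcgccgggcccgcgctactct
Hist1h4d: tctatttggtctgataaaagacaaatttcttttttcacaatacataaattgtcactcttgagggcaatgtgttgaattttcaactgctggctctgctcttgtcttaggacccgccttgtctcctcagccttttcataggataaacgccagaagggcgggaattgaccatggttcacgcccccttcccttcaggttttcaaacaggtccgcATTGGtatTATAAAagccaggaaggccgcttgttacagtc
Hist1h2bf: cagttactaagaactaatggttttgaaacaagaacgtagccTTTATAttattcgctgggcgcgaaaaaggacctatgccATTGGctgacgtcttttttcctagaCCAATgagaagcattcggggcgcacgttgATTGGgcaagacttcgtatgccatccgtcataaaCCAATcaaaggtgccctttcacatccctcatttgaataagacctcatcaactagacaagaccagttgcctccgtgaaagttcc
In Hist1h1b the TATAAA began at position -28 from the start and the AAACACA at -117. In Hist1h1c the AAACACA began at -112 and CCAAT at -54. TATAAA was not matched there, and other forms of the TATA box were not searched. In Hist1h4d the reverse of CCAAT began at -40 and TATAAA at -32.

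CCAAT was found in all 6 H1, all 17 H2A and all 16 H2B promoters, in 8 of 10 H3 promoters and in 3 of 12 H4 promoters, against 33.8% of 32851 RefSeq promoters. AAACACA was found in 5 of 6 H1 promoters, Hist1h1a being the exception, and in 6.25% of all. TTTGCAT was found in 7 of 17 H2A and 6 of 16 H2B promoters and in 4.12% of all, and TATAAA in 29 of 61 member promoters and in 12.4% of all. A match describes the letters in this window and shows no binding. The windows of neighbouring H2A and H2B genes can overlap, as for Hist1h2ae and Hist1h2bg, so the same site can be counted in both classes. Those of Hist1h2bq and Hist1h2br hold the same sequence. The promoters counted are therefore not all independent. The AC box was present both in Hist1h1b and in Hist1h1c.

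The proteins that make and process histone mRNA were examined as a list of 25 genes, of which 24 were found and tested. At day 3 compared with uninjured microglia, 2 were higher and 0 lower, against 2.49% and 0.983% of all genes. Ccne1, the cyclin whose kinase activates NPAT, had 6.60, 5.51 and 12.75 CPM at day 3, against 0.0534 and 0.155 CPM in uninjured libraries (log2 fold change 6.20, SE 1.18, adjusted p = 0.00934, edgeR). Eri1, an exonuclease that trims and degrades histone mRNA at the stem-loop, had 76.5, 97.8 and 87.1 CPM at day 3, against 42.8 and 46.4 CPM in uninjured libraries (log2 fold change 0.97, SE 0.21, adjusted p = 0.0185, edgeR). In both genes the groups lay apart.

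Slbp, which encodes the stem-loop binding protein, had 25.5 and 21.9 CPM in uninjured libraries, 37.7, 18.4 and 32.3 CPM at day 1, and 31.6, 26.5 and 47.8 CPM at day 3. Its day 3 libraries lay above the uninjured ones and overlapped those of day 1. It was not called in any comparison (log2 fold change 0.57, SE 0.35, adjusted p = 0.482 at day 3 against uninjured, edgeR). Npat, the activator of histone gene transcription, had 61.5, 66.7 and 43.6 CPM at day 3, against 51.6 and 49.3 CPM in uninjured libraries, and its groups overlapped (adjusted p = 0.825, edgeR). Casp8ap2, Lsm10, Lsm11 and Zfp473, which act in histone locus bodies or the U7 particle, were not called either.

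Between day 3 and day 1, 2 of the 24 were higher and 4 lower, against 5.24% and 5.75% of all genes, so the count of higher genes was near that share. Ccne1 (8.29 ± 3.90 CPM at day 3 and 0.698 ± 0.730 CPM at day 1, SD, n = 3 each, adjusted p = 0.0150, edgeR) and the cleavage factor gene Cstf2 (59.5 ± 7.35 CPM at day 3 and 31.97 ± 7.75 CPM at day 1, adjusted p = 0.0255, edgeR) were higher. Pcf11, a factor of transcription termination, was the lower gene of smallest p (125 ± 11.7 CPM at day 3 and 247 ± 51.9 CPM at day 1, log2 fold change -0.99, adjusted p = 0.00209, edgeR). Mif4gd, which helps SLBP in translation, was lower at 8.65 ± 1.63 CPM at day 3 against 21.2 ± 5.51 CPM at day 1 (log2 fold change -1.29, adjusted p = 0.0257, edgeR). The uridylyl transferases Tut4 and Tut7 were the other 2. At day 1 compared with uninjured microglia 0 of the 24 were called, and at an unadjusted p under 0.05 there were 2 higher and 0 lower. Of all genes, 7.30% were higher and 7.47% lower at that p, so the count of higher genes was near its share.

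Histones that are also made outside S phase, most of them from polyadenylated mRNA, were listed as 15 genes, of which 11 were tested. None was called at day 3 against uninjured microglia, where 2 were higher at an unadjusted p under 0.05, against 9.21% of all genes. Against day 1, 3 were higher at day 3 and 0 lower, where 5.24% and 5.75% of all genes were called. H2afx, the H2A form phosphorylated at DNA breaks, had 18.1, 13.3 and 26.1 CPM at day 3, against 4.67, 9.31 and 3.76 CPM at day 1 (log2 fold change 1.70, SE 0.46, adjusted p = 0.0284, edgeR). Against uninjured libraries, at 3.74 and 5.67 CPM, its adjusted p was 0.0539. H2afv, an H2A.Z gene, had 18.5 ± 2.03 CPM at day 3 and 6.79 ± 2.52 CPM at day 1 (SD, n = 3 each, adjusted p = 0.0272, edgeR). H1f0, the linker histone of differentiated cells, had 28.7 ± 3.82 CPM at day 3 and 13.8 ± 3.09 CPM at day 1 (adjusted p = 0.0323, edgeR). H2afz, H3f3a, H3f3b and the centromeric Cenpa were not called in any comparison.

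Chaperones carry newly made histones to DNA, and all 26 on their list were tested. At day 3 compared with uninjured microglia 4 were higher and 0 lower, against 2.49% and 0.983% of all genes. Chaf1a, the large subunit of the chromatin assembly factor CAF-1 that deposits H3 and H4 behind the replication fork, had 11.3, 7.74 and 13.8 CPM at day 3, against 0.534 and 0.464 CPM in uninjured libraries (log2 fold change 4.43, SE 0.84, adjusted p = 0.00924, edgeR). Asf1b, which hands H3 and H4 to CAF-1, had 10.9, 14.6 and 16.7 CPM at day 3, against 0.427 and 0.103 CPM in uninjured libraries (log2 fold change 5.69, SE 1.14, adjusted p = 0.0120, edgeR). Npm1 and Anp32e were the other 2, with log2 fold changes of 0.82 and 0.76. Chaf1b, the second CAF-1 subunit, had 8.63, 11.2 and 17.99 CPM at day 3, against 1.496 and 1.91 CPM in uninjured libraries, with groups apart and an adjusted p of 0.0647 (edgeR).

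Against day 1, 8 chaperone genes were higher at day 3 and 3 lower, where 5.24% and 5.75% of all genes were called. Those of smallest p among the higher were Chaf1a (log2 fold change 4.23, adjusted p = 0.00174), Chaf1b (3.71, adjusted p = 0.00422) and Asf1b (4.15, adjusted p = 0.00737, all edgeR). Ubn1, part of the HIRA complex that deposits the replacement histone H3.3, was lower, at 162 ± 21.2 CPM at day 3 against 282 ± 60.0 CPM at day 1 (SD, n = 3 each, log2 fold change -0.80, adjusted p = 0.00878, edgeR). Spty2d1 and Cabin1 were the other 2. Nasp, which stores soluble H3 and H4, was not called in any comparison. At day 1 against uninjured microglia 0 of the 26 were called, and 2 were higher at an unadjusted p under 0.05. That count was near the share of all genes, 7.30%.

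**Figure D5:**
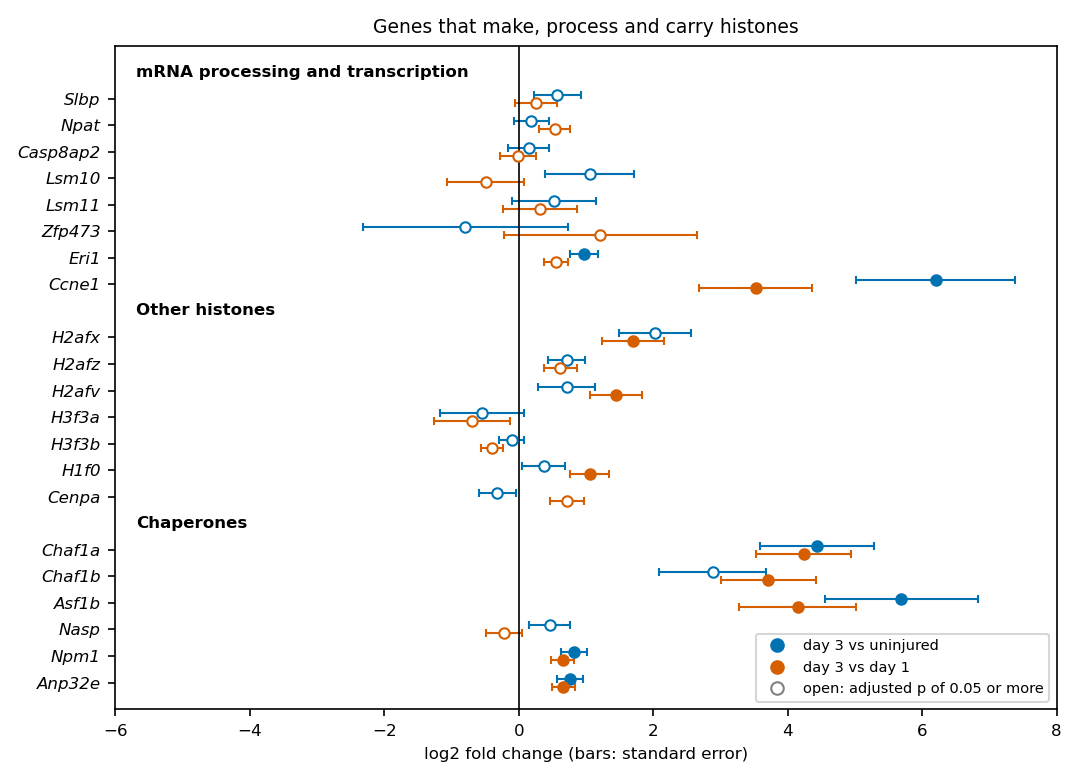
Log2 fold change (point) and standard error (bar) at day 3 against uninjured libraries (blue) and against day 1 (orange) for 21 genes of histone mRNA metabolism, other histones and histone chaperones. Filled points have an adjusted p under 0.05, as for Ccne1, Chaf1a and Asf1b in both comparisons, and Slbp, Npat and Casp8ap2 are open and within 1 log2 unit of 0.

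Of 36 genes of S phase, 35 were tested. At day 3, 17 were higher than in uninjured libraries and 21 higher than at day 1, with 0 lower in either. Of all genes tested, 2.49% were called higher and 0.983% lower than in uninjured libraries. Against day 1 these shares were 5.24% and 5.75%. Mki67, a marker of cycling cells, had 35.6 and 31.6 CPM in uninjured libraries, 61.1, 37.2 and 46.6 CPM at day 1, and 900.5, 1219 and 1556 CPM at day 3. Mcm5, a subunit of the replicative helicase, had 2.59 ± 0.193 CPM in uninjured libraries (SD, n = 2), 4.45 ± 2.49 CPM at day 1 (SD, n = 3) and 54.0 ± 7.29 CPM at day 3 (SD, n = 3). Pcna, the sliding clamp, was not called in either comparison. The summed S phase list was at 354 to 363 CPM in uninjured libraries, 412 to 543 CPM at day 1 and 1217 to 1482 CPM at day 3. In the same order of groups, all 52 histone genes summed to 124.7 to 127.2, 127.4 to 161.0 and 178.3 to 213.6 CPM. Without Hist1h1c and Hist1h2bc, the other 50 summed to 48.0 to 55.3, 44.3 to 80.6 and 93.3 to 141.7 CPM.

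Markers of other cells moved with the same comparisons. At day 3 against day 1, 6 of 10 endothelial, 4 of 6 mural and 4 of 7 choroid plexus and ependymal markers were higher, and 3 of 8 microglial markers lower. Of 6 astrocyte markers 1 was higher and 1 lower, and 1 neutrophil and 1 border macrophage marker were lower. In this comparison 5.24% of all genes were called higher and 5.75% lower. The endothelial markers summed to 1152 to 1342 CPM in uninjured libraries, 498 to 627 CPM at day 1 and 915 to 1036 CPM at day 3, and the mural markers to 1110 to 1251, 552 to 630 and 858 to 945 CPM. The choroid plexus and ependymal markers summed to 517 to 5448 CPM in uninjured libraries, 1.09 to 56.6 CPM at day 1 and 619 to 3541 CPM at day 3, with Folr1 at 0 in all day 1 libraries. At day 1 against uninjured microglia 7 endothelial, 1 mural, 3 choroid plexus and ependymal and 1 of 6 astrocyte markers were lower. The share of all genes called lower there was 1.16%. At day 3 against uninjured microglia, none of the endothelial, mural or choroid plexus and ependymal markers was called. P2ry12 of the microglial, Slc1a3 of the astrocyte and F13a1 of the border macrophage markers were lower there, against 0.983% of all genes. Border macrophage markers summed to 580 to 695, 531 to 760 and 377 to 478 CPM over uninjured, day 1 and day 3 libraries, and astrocyte markers to 115 to 130, 79.4 to 125 and 50.9 to 67.0 CPM. Lymphocyte markers stayed at or under 2.48 CPM in sum, and monocyte markers reached at most 34.1 CPM, in day 1 replicate 2. Neutrophil markers summed to 27.7 to 32.1 CPM in uninjured libraries, 37.7 to 122 CPM at day 1 and 13.9 to 27.6 CPM at day 3. Their highest sum was also in day 1 replicate 2. Which cells the histone counts came from was not measured, and the part of these markers in the results was not tested.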

How the data were processed

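Per the labels, RNA was extracted with a small-sample column kit and linearly amplified. The submitters' processing notes name FastQC, STAR, HTSeq and mm9, without versions. The authors deposited raw counts, 1 value for each Ensembl gene and library. Symbols and transcripts came from GENCODE M21 (25925 of 26062 IDs matched, and the rest held 0.127% of counts). The mm9 build differs from it, so gene coordinates are given only for RefSeq promoters. The test was edgeR's (4.0.16, R 4.3.3) robust quasi-likelihood F-test after filterByExpr (17390 genes kept) and TMM, with the 3 groups fitted together and Benjamini-Hochberg adjustment over all tested genes with a threshold of 0.05. Against a group without counts, a fold is a lower bound from 3 counts over the group. Such a bound leaves out counting error in the other group and the spread between libraries. The procedure was tested on simulated data. Alternatives were DESeq2 1.42.0, limma-voom (limma 3.58.1), other scaling and filters, 2-group fits, a replicate block and leaving out each library. The members and lists were chosen with earlier results of these data known. The genes named are all members called in any comparison, the 4 of highest mean CPM per class, the Hist3 and Hist4 members, the called genes of smallest p in each list and 19 fixed genes. Other members named, and the grouping by transcript end, were chosen after their values were seen. The labels give 1 flow cell code for the 8 libraries, so no difference between flow cells could be tested. Batches in other steps, such as cell purification and amplification, were not tested.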

Additional observations from a re-analysis of the deposited data

Results flagged for a closer look

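The change from uninjured microglia differed between day 3 and day 1 for 5 histone genes, by the test of day 3 against day 1. The difference in log2 fold change was 9.48 for Hist1h1b, 8.16 for Hist1h1a and 7.67 for Hist1h2bf, fitted values that are no bound because these genes had no count at day 1. It was 2.23 for Hist1h4d and -0.91 for Hist1h1c. The adjusted p-values (edgeR) were 0.000916, 0.0139, 0.0261, 0.00120 and 0.0417 in that order. In each of the 5 genes the day 3 and day 1 libraries did not overlap, as given above.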

How the results depend on the processing

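Of the counts of histone genes called, 3 were above 0, and 17 of their 21 values under other tools, scaling, filters and fits stayed within 1.5 times the value given. The other 3 counts were 0 and stayed 0 under these settings, which says little at so few members. With the replicate number as a block, 0 members were higher at day 3 than in uninjured libraries and 0 were lower than at day 1. DESeq2 called 8 members higher at day 3 than at day 1, and a fit of the libraries of those 2 groups alone called 0 lower. With each library left out in turn, 0 to 3 members were higher at day 3 than in uninjured libraries, 2 to 5 were higher than at day 1, and 0 to 1 were lower. The cause of these changes was not tested. Fold changes were recomputed for the 6 members called in any comparison, and no direction was reversed among these. Same-numbered libraries did not vary together (correlation of deviations -0.0599 to 0.0906 over 7 pairs), so the numbers were not taken as pairs. Scaling by library size moved the median log2 fold change of all genes by -0.117 at day 1 and -0.152 at day 3 against uninjured libraries. The uninjured group has 2 libraries, and most members have too few counts for a test, so a member not called may still differ.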
